A study of Mus musculus with 6 samples.

Results

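In mouse E14 embryonic stem cells that received an shRNA against REST, 12 probes, each for a different gene, gave no signal above array background, although they were detected in cells with the empty pSuper vector. Other probes of 3 of these genes, Atg2b, Ahnak and Kmt5a, stayed above background on all arrays. The 12 genes are Hrc, H1f1, St6galnac6, Ahnak, 1700067K01Rik, Kmt5a, Zmynd10, H4f16, Atg2b, Ascl2, Zfy1 and Mllt10. They were chosen from 23978 probes with a gene symbol by a score that Illumina arrays give each probe on each array, which is near 1 when the probe is brighter than nearly all background probes. The score had to be above 0.99 on all 3 control arrays and below 0.95 on all 3 REST shRNA arrays. A total of 14 probes met this rule, 0.0584% of those with a symbol and 0.149% of the 9404 that were above 0.99 on all control arrays, and Nxph4 and Islr2 among them were left out. The intensities that follow belong to the comparison that chose the genes, so they are given as a description without a test.

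The study measured total RNA on 6 arrays, 3 from E14 cells treated for 72 h with the REST shRNA and 3 from E14 cells treated for 72 h with the empty vector pSuper. E14 is an established line of mouse embryonic stem cells, and both groups share the line and the time. The shRNA, a short hairpin RNA, is processed in the cell and directs the breakdown of the matching transcript. Nothing in the labels says whether the replicates were separate cultures, so the p-values below reflect no more than how far these samples differ from one another, and that difference may be technical.

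REST is a zinc finger protein that binds a long DNA element, RE1, near many neuronal genes and recruits histone deacetylases and other corepressors that keep these genes silent outside neurons. The 12 genes here are on the opposite side, with lower signal in REST shRNA cells. Several of the 12 genes act on chromatin. H1f1 encodes a linker histone, which binds the DNA between nucleosomes, and H4f16 a copy of histone H4, part of the nucleosome core. Kmt5a places the first methyl group on a lysine of histone H4, and Mllt10 is a cofactor of the histone H3 methyltransferase DOT1L. Ascl2 and Zfy1 are DNA-binding regulators, 1700067K01Rik is named only by its clone, and the others act at membranes, in the endoplasmic reticulum or in cilia.

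The upstream sequence of 3 of these genes is shown because Hrc and H1f1 had the largest lower bounds of the fold and because H1f1 and H4f16 are the histone genes of the set. Each run is the 250 bases before the annotated transcript start, read 5′ to 3′ on the gene's strand, from RefSeq on build GRCm38.p6. Capitals mark the letters TATAAA (the TATA element) and CCAAT (the CCAAT box) or their reverse complements.
Hrc (chr7:45335019-45335268, plus strand): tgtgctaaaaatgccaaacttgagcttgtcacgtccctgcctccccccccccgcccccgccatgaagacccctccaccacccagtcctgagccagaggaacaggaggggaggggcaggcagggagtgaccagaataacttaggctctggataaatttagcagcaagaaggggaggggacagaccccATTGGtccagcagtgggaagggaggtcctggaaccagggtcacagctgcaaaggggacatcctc
H1f1 (chr13:23763418-23763667, plus strand): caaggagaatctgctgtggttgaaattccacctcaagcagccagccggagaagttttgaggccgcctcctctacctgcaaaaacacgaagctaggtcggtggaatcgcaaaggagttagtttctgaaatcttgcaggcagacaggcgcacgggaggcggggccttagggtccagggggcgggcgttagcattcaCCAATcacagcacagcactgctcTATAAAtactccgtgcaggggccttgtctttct
H4f16 (chr6:136804432-136804681, minus strand): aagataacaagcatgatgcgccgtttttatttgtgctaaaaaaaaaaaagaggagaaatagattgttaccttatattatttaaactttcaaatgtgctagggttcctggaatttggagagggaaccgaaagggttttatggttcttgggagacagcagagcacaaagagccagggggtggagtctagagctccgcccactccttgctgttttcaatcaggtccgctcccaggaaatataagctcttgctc
H1f1 held CCAAT 56 bases and TATAAA 33 bases before its start. Hrc held a CCAAT on the opposite strand 64 bases before its start, and the H4f16 window held neither motif. All 12 genes matched a window in RefSeq, 16 windows in all because Kmt5a and Mllt10 have 3 each. CCAAT stood in the windows of 6 genes (8 of 16 windows) and in 33.8% of all 32851 windows of this length. TATAAA stood in 2 of the 16 windows, H1f1 and Zmynd10, and in 12.4% of all windows. In Zmynd10 it stood 250 bases before the start, at the far edge of the window. The letters TTCAGCACC and GGACAGC, the more conserved parts of the RE1 element, were in none of the 16 windows on either strand. They were in 0.301% and 5.28% of all windows, and their absence says only that these letters are not in these windows.

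The arrays set a narrow range for what could be measured. The score reached 0.95 at intensities of 15.4 to 16.5 on the REST shRNA arrays and of 14.3 to 16.5 on the control arrays, in units that can fall below 0 for probes at background. It reached 0.99 at 26.3 to 29.9 on the REST shRNA arrays and at 24.3 to 26.4 on the control arrays. Mean intensity over all probes was 442 to 444 on the REST shRNA arrays and 442 to 473 on the control arrays. Rest could not check the knockdown, because its only probe was below background on all 6 arrays (0.633 ± 2.52 in REST shRNA and -0.0333 ± 0.603 in control cells, SD, n = 3). Of 22 embryonic stem cell markers with a probe, 20 were above background on every array.

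All 12 probes were dim when they were detected. Their mean control intensity ran from 28.8 to 51.9, whereas the median over the 9404 named probes with a score above 0.99 on all control arrays was 269. Between 0.202% and 10.7% of those 9404 probes had a lower mean control intensity than a given one of the 12. Intensities of different probes are not amounts of RNA that can be set against each other, so these values place the probes only relative to background. The groups did not overlap for any of the 12, a result of the rule. REST shRNA arrays lay wholly below control arrays for 13.5% of all probes with a symbol and for 22.1% of the tested probes. On the log2 scale after normalization the median difference was -1.01 over the 12 probes and -0.006 over all 12406 tested probes. The rule fixes the direction of the first value, and its size depends on how background is treated, with -0.54 at an offset of 50 in place of 16.

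**Figure D1:**
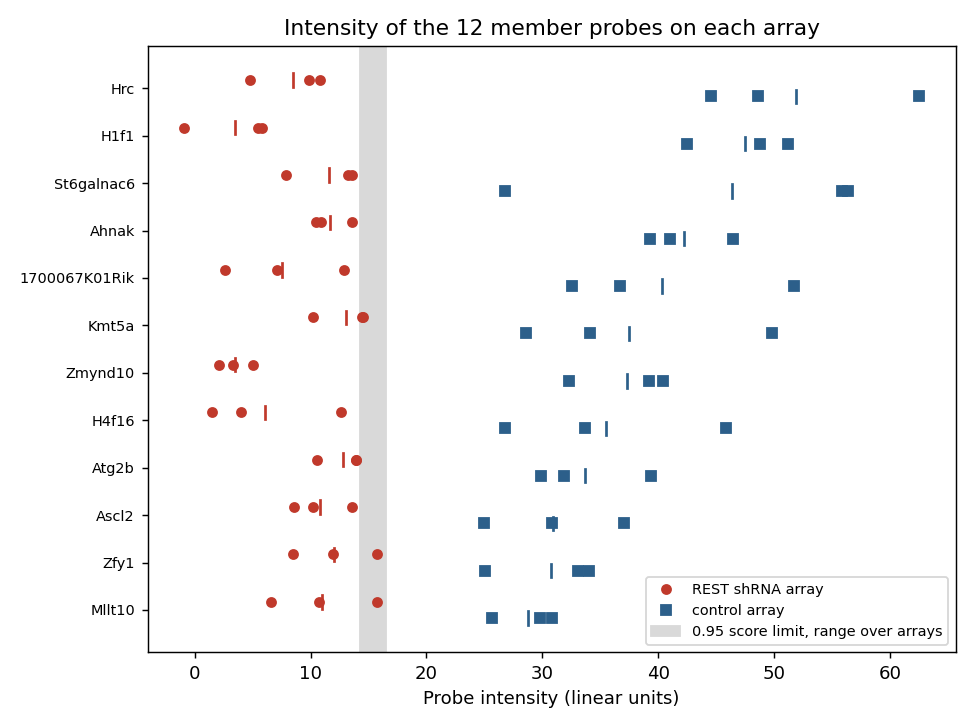
Linear probe intensity of the 12 genes on each of the 3 REST shRNA arrays (circles) and 3 control arrays (squares), with a tick at each group's mean and a grey band for the intensity at which the score passes 0.95 over the 6 arrays (14.3 to 16.5). REST shRNA values lie between -0.9 and 15.7 and control values between 25.0 and 62.5.

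Among the chromatin genes, H1f1 showed the widest gap. The linker histone gene had intensities of 5.8, -0.9 and 5.5 on the REST shRNA arrays, against 48.8, 51.2 and 42.5 on the control arrays. The lowest control array exceeded the highest REST shRNA array by 36.7 units, and the signal was at least 1.98-fold lower. Such bounds set the normalized control mean against the dimmest signal still scored as above background on the REST shRNA arrays, because a level under background is known only as an upper limit.

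H4f16, one of many genes for the same histone H4 protein, had 12.6, 1.5 and 4.0 on the REST shRNA arrays and 26.8, 45.9 and 33.7 on the control arrays, at least 1.60-fold lower. Its control arrays spread widely, with an SD of 9.67 around a mean of 35.5. Kmt5a, the writer of histone H4 monomethylation, had 14.4, 14.5 and 10.2 on the REST shRNA arrays and 49.8, 34.1 and 28.6 on the control arrays, at least 1.64-fold lower. Mllt10, the DOT1L cofactor, had 6.6, 15.7 and 10.7 on the REST shRNA arrays and 25.7, 29.8 and 30.8 on the control arrays. This was the smallest bound of the 12, at least 1.41-fold lower. Its second REST shRNA array lay close to the limit.

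Both DNA-binding regulators were close to background in control cells as well. Ascl2, a basic helix-loop-helix factor of the trophoblast and of intestinal stem cells, had 13.6, 8.6 and 10.2 on the REST shRNA arrays and 25.0, 37.1 and 30.8 on the control arrays. Zfy1, a zinc finger protein encoded on the Y chromosome and known for its role in spermatogenesis, had 11.9, 8.5 and 15.7 on the REST shRNA arrays and 25.1, 33.1 and 34.0 on the control arrays. Each was at least 1.47-fold lower, and Zfy1 had the narrowest gap between groups of all 12 genes, 9.4 units.

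Hrc had the brightest control signal of the set. It encodes a histidine-rich calcium-binding protein of the sarcoplasmic reticulum that is best known in muscle. Its probe gave 10.8, 9.9 and 4.8 on the REST shRNA arrays and 62.5, 48.6 and 44.6 on the control arrays, at least 2.10-fold lower, the largest bound. The unannotated gene 1700067K01Rik had 2.6, 12.9 and 7.1 on the REST shRNA arrays and 36.7, 32.6 and 51.7 on the control arrays, at least 1.75-fold lower. Zmynd10, needed to assemble the dynein arms of motile cilia, had 3.3, 2.1 and 5.0 on the REST shRNA arrays and 40.4, 39.2 and 32.3 on the control arrays, at least 1.67-fold lower. With H1f1 it had the lowest REST shRNA mean of the set, 3.47 each.

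Membrane and trafficking genes completed the set. Ahnak, a very large scaffold protein at the plasma membrane, had 13.6, 10.9 and 10.5 on the REST shRNA arrays and 46.5, 41.0 and 39.3 on the control arrays, at least 1.82-fold lower. Its arrays differed little within each group (SD 1.69 in REST shRNA and 3.76 in control cells). St6galnac6, which adds sialic acid to glycolipids, had 13.2, 13.6 and 7.9 on the REST shRNA arrays and 55.9, 56.4 and 26.8 on the control arrays, at least 1.89-fold lower. Control replicate 3 was far dimmer than the other control arrays for this probe. Atg2b, which transfers lipids to the growing autophagosome, had 13.9, 13.9 and 10.6 on the REST shRNA arrays and 39.4, 31.9 and 29.9 on the control arrays, at least 1.55-fold lower.

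Differences between single arrays ran across several genes. Control replicate 3 was the lowest control array for 7 of the 12 genes, and the median over the 12 was 33.0 there, against 39.9 and 38.2 on control replicates 1 and 2. REST shRNA replicate 1 was the highest REST shRNA array for 6 of the 12, with a median of 12.2 over the 12 genes, against 10.4 and 9.05 on REST shRNA replicates 2 and 3.

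**Figure D2:**
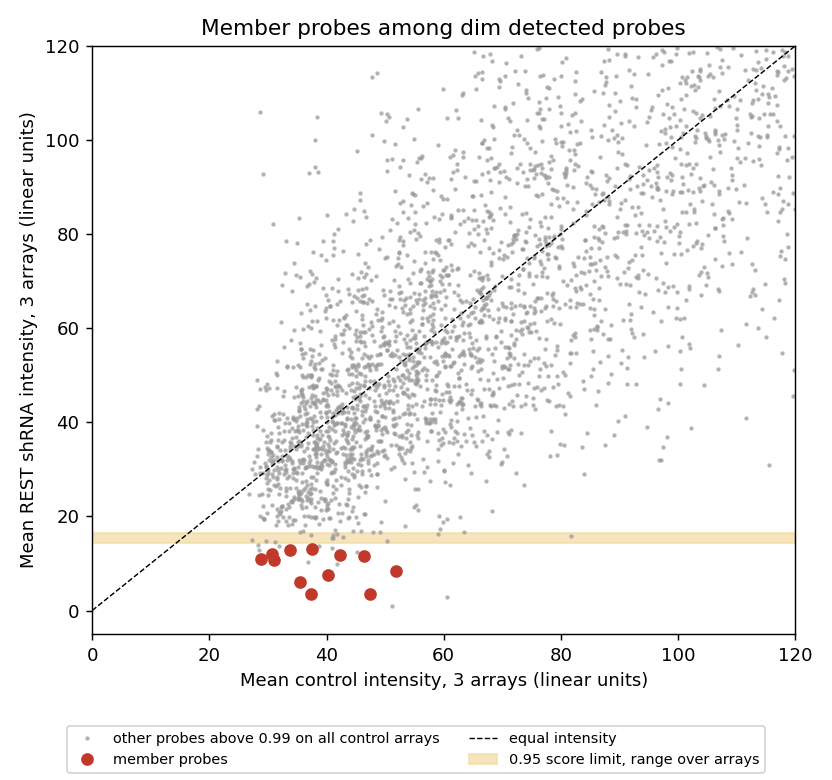
Mean intensity over the 3 REST shRNA arrays (vertical axis) against mean intensity over the 3 control arrays (horizontal axis), both in linear units, for probes with a symbol and a score above 0.99 on all control arrays. The 12 genes (large circles) lie under the band where the score passes 0.95. Grey points under the band are the 2 probes left out and probes whose score was 0.95 or more on at least 1 REST shRNA array.

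Few probes of this brightness met the rule. A total of 988 probes with a score above 0.99 on all control arrays had a mean control intensity within the range of the 12, including the 12 themselves. The others had a median intensity of 40.1 in REST shRNA and 40.9 in control cells. The opposite rule, above 0.99 on all REST shRNA arrays and below 0.95 on all control arrays, was met by 23 probes with a symbol, 0.0959% of all with a symbol and 0.247% of the 9317 above 0.99 on all REST shRNA arrays.

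The thresholds pass between probes that look alike. Just inside the REST shRNA limit were Mllt10, Zfy1 and Kmt5a, whose highest REST shRNA scores were 0.94862, 0.94486 and 0.93734. Just outside it were Rab42, Ccnl1 and Sfi1, each over the limit on 1 array, with highest REST shRNA scores of 0.95489, 0.95614 and 0.95614. Rab42 had intensities of 9.7, 16.2 and 5.2 on the REST shRNA arrays and 48.6, 29.2 and 32.5 on the control arrays, which is close to the values of Kmt5a. At the control limit, Ascl2, St6galnac6 and Zfy1 were just inside, with lowest control scores of 0.99123, 0.99248 and 0.99248. Cd2bp2, Dhx16 and Gramd1a were just outside it, at 0.98872, 0.98747 and 0.98622.

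None of the other probes for the 12 genes went from above background on all control arrays to below it on all REST shRNA arrays. Of the 12 genes, 7 have 1 probe on the array and 5 have more, which gives 9 further probes. Atg2b was detected strongly by its other probe, at 929.1, 1014.9 and 949.4 on the REST shRNA arrays and 935.8, 892.9 and 973.4 on the control arrays, a log2 difference of 0.03. The groups overlapped, and Atg2b transcripts matched by that probe were detected on all 6 arrays.

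Ahnak was also bright at its other probe, with 219.6, 224.2 and 195.7 on the REST shRNA arrays and 308.5, 299.5 and 359.8 on the control arrays. The REST shRNA mean was 0.661 of the control mean and the groups did not overlap. For Kmt5a, the 3 other probes were above background on every array, and their REST shRNA means were 0.833, 0.703 and 0.767 of the control means. The groups overlapped at the probe with 0.703 (98.0, 100.1 and 124.6 on the REST shRNA arrays, 192.1, 161.7 and 105.3 on the control arrays) and not at the others. Ahnak and Kmt5a transcripts were thus detected in REST shRNA cells by other probes. In the same limma fit, the probe with 0.767 was the only one of these Kmt5a probes with an adjusted p under 0.05. That result was lost in the authors' ratios (limma adjusted p = 0.203). It was also lost without control replicate 1 or 2 or REST shRNA replicate 2 or 3 (limma adjusted p = 0.0551 to 0.0626). Each of the other Kmt5a probes was called lower with an offset of 50 and with a trended robust variance. The probe with 0.833 was also called with the strictest filter on dim probes (limma adjusted p = 0.0368 to 0.0452). The probe with 0.703 was also called without control replicate 3 (limma adjusted p = 0.0171 to 0.0418). REST shRNA arrays lay wholly below control arrays for 22.1% of all tested probes, so such gaps were common.

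St6galnac6 and Zfy1 had only dim further probes. A further St6galnac6 probe had 7.8 to 23.8 on the REST shRNA arrays and 5.3 to 22.2 on the control arrays, a log2 difference of 0.01. It was above background on 2 arrays of each group, and the remaining St6galnac6 probes were below background on all arrays. The other Zfy1 probe was below background on all 6 arrays. Which transcripts these probes match is not given in the sources used here.

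**Figure D3:**
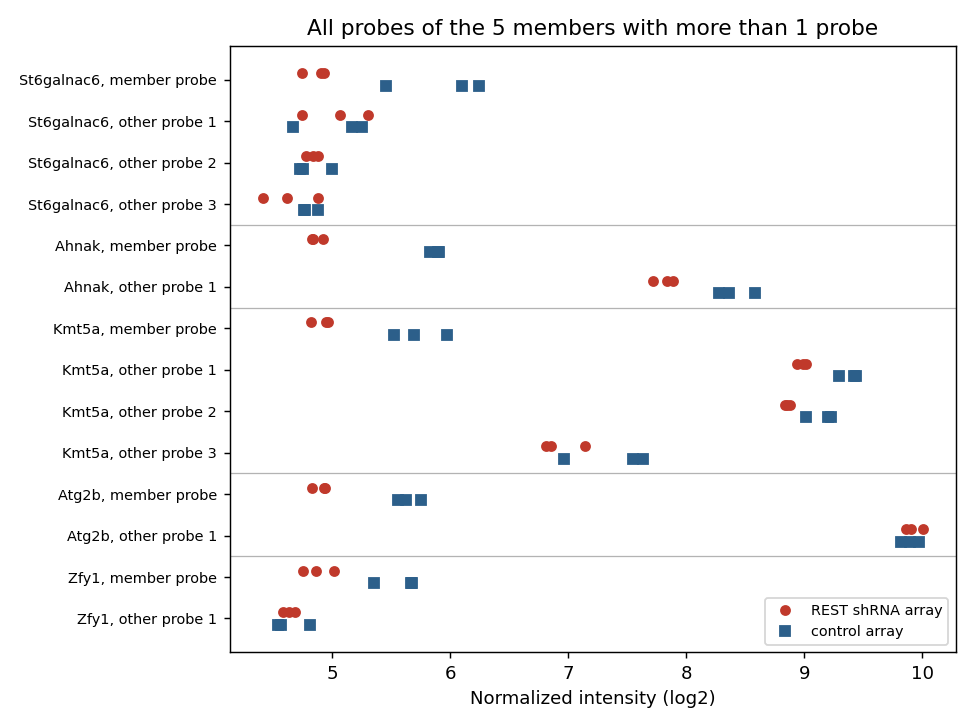
Normalized log2 intensity of every probe of the 5 genes with more than 1 probe, on each REST shRNA array (circles) and control array (squares), with the probe that met the rule first in each gene. The other Atg2b probe has overlapping groups (log2 difference 0.03), the other Ahnak probe and the 3 other Kmt5a probes have log2 differences of -0.59 and of -0.29 to -0.45, with overlapping groups at 1 Kmt5a probe, and the further St6galnac6 and Zfy1 probes stay near background.

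Genes related to the 12 by family or pathway were tested in limma's fit over all 12406 tested probes, with Benjamini-Hochberg adjustment over all of them. At 1 probe a gene, 13.1% of 8740 tested genes fell and 13.9% rose. By probe, 1619 fell and 1590 rose (13.1% and 12.8% of 12406), whereas 907 fell and 2118 rose in the authors' ratios. The families and the genes named from them were chosen after the 12 genes and values of these data had been seen, so their counts are descriptions of chosen groups.

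Other histone H4 genes were lower as well. Of 9 other tested H4 genes, 7 fell and none rose, with a median log2 difference of -0.86. H4c18 had the largest difference, with 51.2, 71.6 and 57.3 on the REST shRNA arrays and 141.2, 195.0 and 122.8 on the control arrays (log2 difference -1.17 ± 0.19, SE, n = 3; limma adjusted p = 0.00313). H4c11 fell by 0.89 ± 0.14 (SE, n = 3; limma adjusted p = 0.00288). H4c3 and H4c9 had -0.49 and -0.31 and were not called (limma adjusted p = 0.0721 and 0.201). H4c14 came close to the rule, with 4.6, 7.5 and 9.0 on the REST shRNA arrays and 25.5, 24.4 and 24.6 on the control arrays. It was at least 1.28-fold lower (limma adjusted p = 0.00243), and its lowest control score was 0.98496. Because H4 genes share most of their coding sequence, probes for different copies may bind the same transcripts, so the copies are uncertain as separate genes.

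Few linker histone genes were bright enough for the fit. Of 8 other H1 genes with a probe, 3 were tested. H1f2 fell by 0.69 ± 0.14 on the log2 scale (SE, n = 3; limma adjusted p = 0.00871) and was bright in both groups, at 1457 ± 18.1 in REST shRNA cells against 2359 ± 400.0 in control cells (SD, n = 3). H1f5 had -0.58 ± 0.18 (SE, n = 3, limma adjusted p = 0.0443). That call was lost without control replicate 2 or 3 and without REST shRNA replicate 2 or 3 (limma adjusted p = 0.0794 to 0.130). It was also lost with the replicate number as a block (limma adjusted p = 0.0687) and without the filter on dim probes (limma adjusted p = 0.0835). H1f10 had 0.05 (limma adjusted p = 0.801). H3c1, the gene next to H1f1 on chromosome 13 among those with a probe, fell by 1.06 ± 0.13 (SE, n = 3; limma adjusted p = 0.00101).

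**Figure D4:**
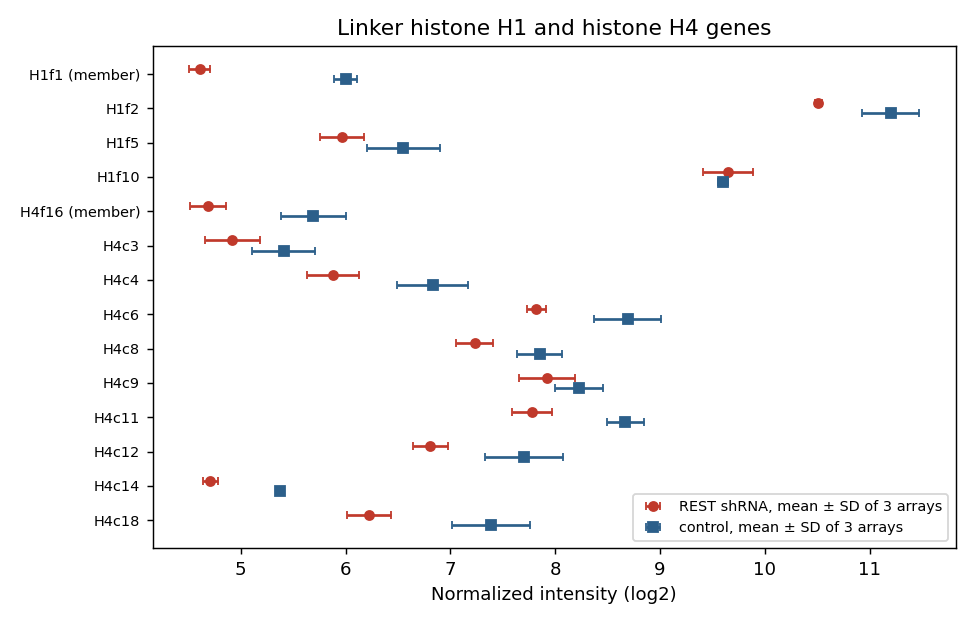
Normalized log2 intensity, mean ± SD of 3 REST shRNA arrays (circles) and 3 control arrays (squares), of H1f1, H4f16 and the other tested linker histone H1 and histone H4 genes. Of the other H4 genes 7 of 9 fell, H1f2 and H1f5 fell, and H1f10 was not called (log2 difference 0.05).

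Of 2 tested relatives of Kmt5a, 1 rose and none fell. Kmt5b, which adds further methyl groups to the same histone H4 residue, rose, with 348.9, 346.9 and 432.4 on the REST shRNA arrays and 180.4, 133.5 and 208.5 on the control arrays (log2 difference 1.03 ± 0.16, SE, n = 3; limma adjusted p = 0.00272). Of its other probes 1 rose as well (adjusted p = 0.00318) and 1 was not called (adjusted p = 0.198). Kmt5c had -0.10 and was not called (adjusted p = 0.549). Among the DOT1L partners of Mllt10, Dot1l had 0.10 and was not called (adjusted p = 0.577), while Mllt3, a further DOT1L cofactor, fell by 0.62 ± 0.12 (SE, n = 3; adjusted p = 0.00629). Of 6 tested genes in the wider set of DOT1L complex genes and genes with an Mllt name, 2 fell and none rose. The second was Mllt11 (-0.36 ± 0.11, SE, n = 3; adjusted p = 0.0384), a call lost in the authors' ratios (adjusted p = 0.317), with the replicate block (adjusted p = 0.0642) and without any single array but control replicate 3.

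Ascl2 lies in an imprinted domain of distal chromosome 7, in which 7 other genes were tested and 4 fell, with none higher and a median log2 difference of -0.45. Cdkn1c, an inhibitor of cell division, had 1316.9, 1100.8 and 848.2 on the REST shRNA arrays and 2869.1, 2636.9 and 2405.4 on the control arrays (log2 difference -1.29 ± 0.16, SE, n = 3; limma adjusted p = 0.00104). Its groups did not overlap. The others that fell were the transporter Slc22a18 (-0.92 ± 0.11, SE, n = 3), Phlda2 (-0.65 ± 0.11) and the tetraspanin Cd81 (-0.45 ± 0.13). The Cd81 call (limma adjusted p = 0.0343) was lost in the authors' ratios, without the filter on dim probes, and without control replicate 1 or 2 or REST shRNA replicate 2 or 3 (adjusted p = 0.0512 to 0.113). With a trended robust variance Nap1l4 of the domain rose (limma adjusted p = 0.0197). Over a wider list of imprinted genes, which shares several of these, 16 were tested beside Ascl2, of which 5 fell and 3 rose. The calls of Impact and Igf2r, which rose, were lost without control replicate 1 or 2 or REST shRNA replicate 3. They were also lost without REST shRNA replicate 1 (Impact) or 2 (Igf2r), with adjusted p = 0.066 to 0.0783 in all these fits. Igf2, a growth factor gene of the domain, had -0.27 and was not called (limma adjusted p = 0.147). The genes with a probe that flank Ascl2 directly, Th and Tspan32, were below background on all 6 arrays. Among other trophoblast markers, 3 were tested, of which the transcription factor gene Tfap2c rose (log2 difference 0.83 ± 0.14, SE, n = 3; limma adjusted p = 0.00353) and none fell.

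For the remaining genes, counts of related genes were small. In calcium handling of the sarcoplasmic reticulum, the field of Hrc, 1 of 5 tested genes rose, the calcium pump Atp2a2 (log2 difference 0.63 ± 0.11, SE, n = 3; limma adjusted p = 0.00533), and none fell. In ganglioside synthesis and the St6galnac family, 1 of 6 tested genes rose and none fell. The gene that rose was St6galnac2, with 74.2, 86.3 and 82.5 on the REST shRNA arrays and 25.2, 20.0 and 14.6 on the control arrays (limma adjusted p = 0.000226). Of 11 tested genes of autophagosome membrane supply, 3 fell (Atg9b, Wipi1 and Atg12) and 1 rose (Wdr45, log2 difference 0.88 ± 0.15, SE, n = 3; limma adjusted p = 0.00368), with Atg2a not called (log2 difference 0.27, limma adjusted p = 0.161). All 3 calls of lower signal were lost in the authors' ratios (limma adjusted p = 0.0661 to 0.307). That of Atg12 was also lost without any single array, without the filter on dim probes and with the replicate block (limma adjusted p = 0.0521 to 0.132). Vmp1 of this set was not called (log2 difference 0.36, limma adjusted p = 0.0647). It rose in the authors' ratios and in several other alternatives (limma adjusted p = 0.0115 to 0.0495). Of 4 tested dynein arm assembly genes beside Zmynd10, 1 fell, Dnaaf3 (-0.52 ± 0.13, SE, n = 3; limma adjusted p = 0.0209). That call was lost in the authors' ratios and without control replicate 2 or REST shRNA replicate 1 or 3 (adjusted p = 0.0595 to 0.0717). The X-linked relative of Zfy1, Zfx, had 0.08 and was not called (limma adjusted p = 0.692).

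Anxa2, an annexin that binds membranes together with S100a10 and Ahnak, fell by 0.82 ± 0.20 (SE, n = 3; limma adjusted p = 0.0179), a call lost without control replicate 2 (adjusted p = 0.0644), and S100a10 had -0.08 (adjusted p = 0.775). Fibroblast markers were among the cell type lists with lower signal. Of 15 fibroblast markers with a probe, 6 were tested, and 4 fell (Vim, Twist1, Mmp2 and Timp1) and none rose. The list's summed intensity was 2412 to 2866 on the REST shRNA arrays and 3866 to 4483 on the control arrays. Col1a1, Col3a1, Twist2, Lum, Dcn and Postn were below background on all 6 arrays. Lower sums without overlap were also seen for endoderm markers (2690 to 2835 against 3131 to 3277 in controls). The same held for epithelium and keratin markers (4885 to 5777 against 6438 to 8390). Of 11 tested endoderm markers 3 fell and 1 rose, and of 14 tested epithelium and keratin markers 4 fell and 3 rose. Krt8 and Krt18 are in both lists and among the genes that fell in each. Of 20 endoderm markers, 8 were below background on all 6 arrays, Gata4, Sox17 and Foxa2 among them. Sums of the neuron, neural progenitor and trophoblast lists were higher. Of their genes with a probe, 12 of 21, 6 of 12 and 6 of 11 were below background on all 6 arrays. Of 9 tested neuron markers 6 rose and 2 fell. Of 3 tested neural progenitor markers 1 rose (Otx2) and 1 fell (Nes). Most of the trophoblast sum (6384 to 7423 against 3171 to 4347) was Tfap2c, with means of 6701 in REST shRNA and 3819 in control cells. The part of these cell types in the Ahnak values was not tested. In such bulk samples, fewer cells of a type and less RNA per cell cannot be told apart.

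The genes next to the 12 on the chromosomes were read as well. Of the 23 nearest neighbours on the array, 12 passed the filter on dim probes, and 3 fell and none rose. Beside H3c1 these were Nprl2, next to Zmynd10 (log2 difference -0.48 ± 0.11, SE, n = 3; limma adjusted p = 0.0115), and Prkaca, next to 1700067K01Rik (-0.40 ± 0.12; adjusted p = 0.0370). Both calls were lost in the authors' ratios (adjusted p = 0.0882 and 0.183), and that of Prkaca also without control replicate 2 or 3 or REST shRNA replicate 2 or 3 (adjusted p = 0.0865 to 0.118) and with the replicate block (adjusted p = 0.0672). Trpm4 and Ppfia3, on either side of Hrc, had log2 differences of 0.12 and 0.16, Ppfia3 not called and Trpm4 too dim to be tested.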

How the data were processed

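Total RNA from 6 samples of mouse E14 cells, 3 per group by their titles, was measured on Illumina arrays. The deposited raw table gives probe intensity in linear units before any normalization between arrays, and a detection score. Per the file headers the score is a p-value, but it rises with the intensity to 1, so 1 minus the score was taken as the detection p. The authors' second table gives linear ratios, with the reference not given in the sources used here.

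Intensities were background corrected with limma 3.58.1 in R 4.3.3 (normal-exponential model, offset 16), quantile normalized and put on the log2 scale. Probes were tested where the detection p was under 0.05 on 3 or more arrays (12406 of 25697), by limma with group as the only term. An adjusted p under 0.05 is a call, "fell" and "rose" are used only of calls, and differences are REST shRNA minus control. The 12 genes were read at the probe that met the rule, and each related gene at its brightest tested probe. The fit was tested on simulated data. By rule all members are named (80 or fewer), with every array's value, their other probes, and the 3 probes nearest to each limit on either side. Members, lists and tests were chosen with earlier results of these data known, and the related families and the genes named from them after values had been seen. Of 25 further lists of pathways and cell type markers, 2 held one of the genes (Ascl2, in trophoblast markers and imprinted genes). The number of arrays limits the precision.

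Alternatives were other score limits, each array left out, other background corrections, scaling and filters, the authors' ratios, a trended robust variance, the replicate number as a block, and the mean of a gene's probes. Same-numbered arrays deviated together little (correlations of -0.062, 0.032 and 0.041), which did not mark them as pairs.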

Additional observations from a re-analysis of the deposited data

How the results depend on the processing

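The number of genes depends strongly on the score limits. It was 3 with REST shRNA scores below 0.90 (H1f1, Hrc and Zmynd10), 97 with scores below 0.99, 66 with control scores above 0.95 and 0 at the strictest control limit tried, and 15 to 27 when each array was left out in turn (27 and 19 without REST shRNA replicates 1 and 2, 24 without control replicate 3). The median log2 difference was -0.54 with an offset of 50, -0.69 without background correction, -0.77 over all probes of each gene, -1.33 and -0.61 for the genes at REST shRNA limits of 0.90 and 0.99, and -0.88 to -1.02 without each array. With the replicate block it was -1.01, and 1463 tested probes were lower and 1418 higher, against 1619 and 1590 without it. The strictest filter on dim probes removed the 12 probes. In the authors' ratios 907 tested probes were lower and 2118 higher. Leaving out each array gave 1005 to 1365 lower and 1030 to 1356 higher, lowest without control replicate 2 and without REST shRNA replicate 3 (1005 and 1007 lower). The cause was not tested. Of the other H4 genes, 6 to 8 fell in all alternatives, of the H1 genes 1 or 2 and of the chromosome 7 domain 3 or 4. Signals this close to background limit the folds of the 12 probes to a bound, which holds only for the background correction used.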

Other observations

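A probe without a gene symbol also met the rule, with 7.9, 4.3 and 8.5 on the REST shRNA arrays and 41.5, 35.4 and 36.5 on the control arrays. In the authors' deposited table of ratios the 12 probes had log2 differences of -1.33 to -0.57.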
